A study of Mus musculus with 3 samples.

Results

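The genes described here encode the proteins of the cytosolic ribosome, measured as mRNA in 3 cultures of mouse keratinocytes. They were chosen by symbol: protein-coding genes named Rpl or Rps followed by a number, with Rplp0, Rplp1, Rplp2 and Rpsa, leaving out the S6 kinase genes and the pseudogenes. The symbols gave 86 genes, and 83 of them reached 1 CPM (a count per 1000000 counts of the library) in at least 1 library, among 11865 genes that did so. The 3 below that level, Rpl3l, Rpl10l and Rpl39l, had 1 count between them in all 3 libraries. Of the 83 genes, 31 encode proteins of the small (40S) subunit, 43 proteins of the large (60S) subunit and 3 the stalk proteins of the large subunit, and these 77 are called the core genes below. The other 6 are the paralogs Rpl7l1, Rpl22l1, Rpl36al and Rps27l, the retrogene Rps27rt, and Rps19bp1, which meets the rule by its symbol and encodes a protein that binds a ribosomal protein.

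All 3 cultures were keratinocytes of the C57BL/6 strain, immortalised with SV40 and taken while growing exponentially. The groups, with 1 library each, were wild type (wt), a knockout of ARPC4 (ARPC4 ko) and cells with Nrf2 fused to EGFP, a green fluorescent protein (Nrf2-EGFP). ARPC4 belongs to the Arp2/3 complex, the machine that starts branches on actin filaments, and Nrf2, encoded by Nfe2l2, is a transcription factor that switches on antioxidant genes. The title of the ARPC4 ko library also reads Cre, the recombinase used to delete floxed alleles, and the title of the Nrf2-EGFP library reads High, which the labels do not explain. Nothing in the labels says whether a culture was 1 clone or a pool, what drives the transgene, or whether the cultures were parallel derivatives of 1 line, although all 3 titles carry the number MI338.

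With 1 library per group the spread between cultures was not measured, so no test of genotype was possible and no p-value is given. Counts in genes came to 22924294 for wt, 23033863 for ARPC4 ko and 25723959 for Nrf2-EGFP. Arpc4 itself had 94.2 CPM in wt, against 61.0 in ARPC4 ko and 98.4 in Nrf2-EGFP, which is 1.54-fold lower in ARPC4 ko than in wt (95% counting interval 1.44 to 1.65), and the labels do not say which part of the gene was deleted. Nfe2l2 had 225, 179 and 166 CPM, so the gene total was not higher in the library labelled Nrf2-EGFP. Of 10 keratinocyte markers 9 were kept, and they summed to 25892 CPM in wt, against 15316 in ARPC4 ko and 20342 in Nrf2-EGFP. Krt15 was not kept, and Krt5 and Krt14 were the highest of the 9. Fibroblast markers summed to between 1.07 and 2.50 CPM with 5 of 7 at 0, immune markers to between 4.79 and 6.29 CPM, and melanocyte and endothelial markers to at most 1.51 CPM. The keratinocyte sum was thus highest in wt, as was the share of the ribosomal protein genes described below, but its genes did not move together. By the counting interval explained below, 6 of the 9 were lower and 2 higher in ARPC4 ko than in wt, and 5 were lower and 4 higher in Nrf2-EGFP. Higher in both were Trp63 (299, 353 and 366 CPM), a transcription factor of basal keratinocytes, and Col17a1 (2081, 2123 and 2599 CPM), a hemidesmosome protein. The part of these markers in the results was not tested.

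The cytosolic ribosome is built from a small subunit, which reads the mRNA, and a large subunit, which joins amino acids, each an assembly of ribosomal RNA and many proteins, most of them present in a single copy. The proteins are needed in matched amounts, and their mRNAs share an unusual start: a C followed by an unbroken run of pyrimidines, called the TOP motif (terminal oligopyrimidine), through which the kinase complex mTORC1 and the RNA-binding protein Larp1 control their translation and stability. Most of these genes also have many processed pseudogenes, which matters for short-read counting because a read that matches several places is not assigned to a gene.

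The letters around the annotated start of each gene show what the core genes share and where they differ. RefSeq promoter sequences on GRCm38.p6 (mm10) were matched for 63 of the 83 genes. Each line gives the 10 bases before and the first 15 bases from the annotated start, with capitals for the unbroken run of C and T that begins at the first transcribed base. Rplp2 and Rps15a on chromosome 7, Rpl38 on chromosome 11 and Rps12 on chromosome 10 were among the lower folds described below, Rps10, Rps18 and Rpl7l1 on chromosome 17 among the highest, Rps6 is the target of the S6 kinases, and Rps27 and Rps27rt are a gene and its retrocopy.
Rplp2 (chr7:141447641-141447665, plus strand): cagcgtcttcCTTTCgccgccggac
Rps15a (chr7:118116133-118116157, minus strand): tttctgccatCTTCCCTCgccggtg
Rpl38 (chr11:114668570-114668594, plus strand): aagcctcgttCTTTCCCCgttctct
Rps12 (chr10:23787195-23787219, minus strand): tcatgcggccaccgccggccttttc
Rps6 (chr4:86857353-86857377, minus strand): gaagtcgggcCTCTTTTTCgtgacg
Rps10 (chr17:27635230-27635254, minus strand): gcgcacgcccCTTCCTTTCCagcct
Rps18 (chr17:33955651-33955675, minus strand): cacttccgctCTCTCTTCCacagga
Rpl7l1 (chr17:46782642-46782666, minus strand): gctgcgcaagCgcagtagctgaagc
Rps27 (chr3:90213634-90213658, minus strand): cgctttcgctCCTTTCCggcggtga
Rps27rt (chr9:114982725-114982749, minus strand): ttatcccttgCTTTCCggcggtgac
A start of C followed by 4 C or T was present at an annotated start of 14 of the 63 matched genes (22.2%), against 3.01% of the 27025 genes in the RefSeq table. An annotated start can lie some bases from the one used in these cells, so a gene without the letters, such as Rps12, is not shown to lack a TOP start. The other letters were searched on both strands from 250 bases before to 50 bases after the start. CCGGAAG, the core of the site bound by ETS factors, was found in 39.7% of the matched genes and 9.93% of all genes, and GGGCGG, the GC box bound by Sp1, in 63.5% and 38.2%. A palindrome of 10 bases that ZBTB33 binds was found in 9.52% and 0.525%, the largest relative excess of the letters searched. AAGATGGC, bound by YY1, was found in 9.52% and 3.19%, and TGACNNNGC, the core of the element that Nrf2 binds, in 19.0% and 14.0%. The E-box CACGTG (9.52% and 8.09%) and the TATA box TATAAA (11.1% and 15.7%) were about as frequent as, or rarer than, in all genes. A match is a description of these letters and does not show a site in use.

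The ribosomal protein genes took a smaller share of the transcriptome in both other libraries than in wt. The 83 genes held 3.26% of all gene counts in wt (Wilson 95% interval 3.25 to 3.27%), against 2.56% in ARPC4 ko (2.55 to 2.57%) and 2.68% in Nrf2-EGFP (2.67 to 2.68%). The intervals are narrow because they cover counting error only, and PCR copies of 1 molecule cannot be told from separate molecules here. Shares are relative to the other mRNAs of the same library, so the amount of ribosomal protein mRNA per cell was not measured, and in bulk RNA fewer cells with a given mRNA and less of it per cell cannot be told apart.

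Levels differed widely between the core genes, with Rplp1 and Rplp0 of the stalk at the top. CPM here are scaled to library sizes corrected with TMM factors. In this paragraph levels of different genes are compared as CPM per kb of annotated transcript, and where plain CPM is used below, it is not corrected for length. The median core gene had 490 CPM per kb in wt, against 339 in ARPC4 ko and 396 in Nrf2-EGFP. Rplp1, a stalk protein that recruits elongation factors to the ribosome, was highest with 2083 CPM per kb in wt, against 1329 in ARPC4 ko and 1577 in Nrf2-EGFP. Rplp0, the stalk base, had 1664, 1321 and 1388 CPM per kb, and Rplp2, the partner of Rplp1, had 1037, 651 and 773. Between Rplp0 and Rplp2 stood Rps12 of the 40S subunit with 1641 CPM per kb in wt, Rpl41, the smallest ribosomal protein, with 1321, and Rps15 with 1196. Rpl4, whose extension lines the exit tunnel, followed with 987, Rps9 with 961, Rpl32 with 934 and Rpl8 with 912. These 10 genes were the highest of all 83 in wt by this measure.

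The 5 lowest core genes included the 4 with the most pseudogenes. Rpl21, Rpl24, Rps2, Rpl7a and Rpl29 had between 17.4 and 59.3 CPM per kb in wt, and each stayed below 50 CPM in all libraries, whereas the next lowest core gene in wt had 122 CPM. Rpl7a shared an identical stretch of 65 bases, the length of a read, with annotated transcripts of 91 pseudogenes, Rpl21 with 68, Rps2 with 58 and Rpl29 with 57, but Rpl24 with 3. The median core gene shared such a stretch with 6 pseudogenes, and a median of 47.2% of its 65-base windows occurred in no other annotated transcript at another place (range 1.42 to 100%). Across the 77 core genes the share of unique windows and the CPM in wt had a Spearman correlation of 0.36, a description over genes of 1 library. Annotated pseudogenes with these symbols together held 572 counts in wt, against 486 in ARPC4 ko and 592 in Nrf2-EGFP, without those under other names. The genes sharing a stretch with Rpl7a (91 of 92 are pseudogenes) held 1276, 1496 and 1735 counts, against 995, 997 and 1065 in Rpl7a. For Rpl21 (68 of 69) they held 1086, 1274 and 1524, against 351, 373 and 464. For Rpl29 they held 731, 859 and 691, against 778, 687 and 824, and for Rps2 101, 88 and 119, against 1026, 1014 and 1081. Alignments to more than 1 place, which belong to no gene, were 7.64%, 6.81% and 7.13% of entries. Reads from such stretches can be lost or given to a copy, so the levels can be understated.

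**Figure D1:**
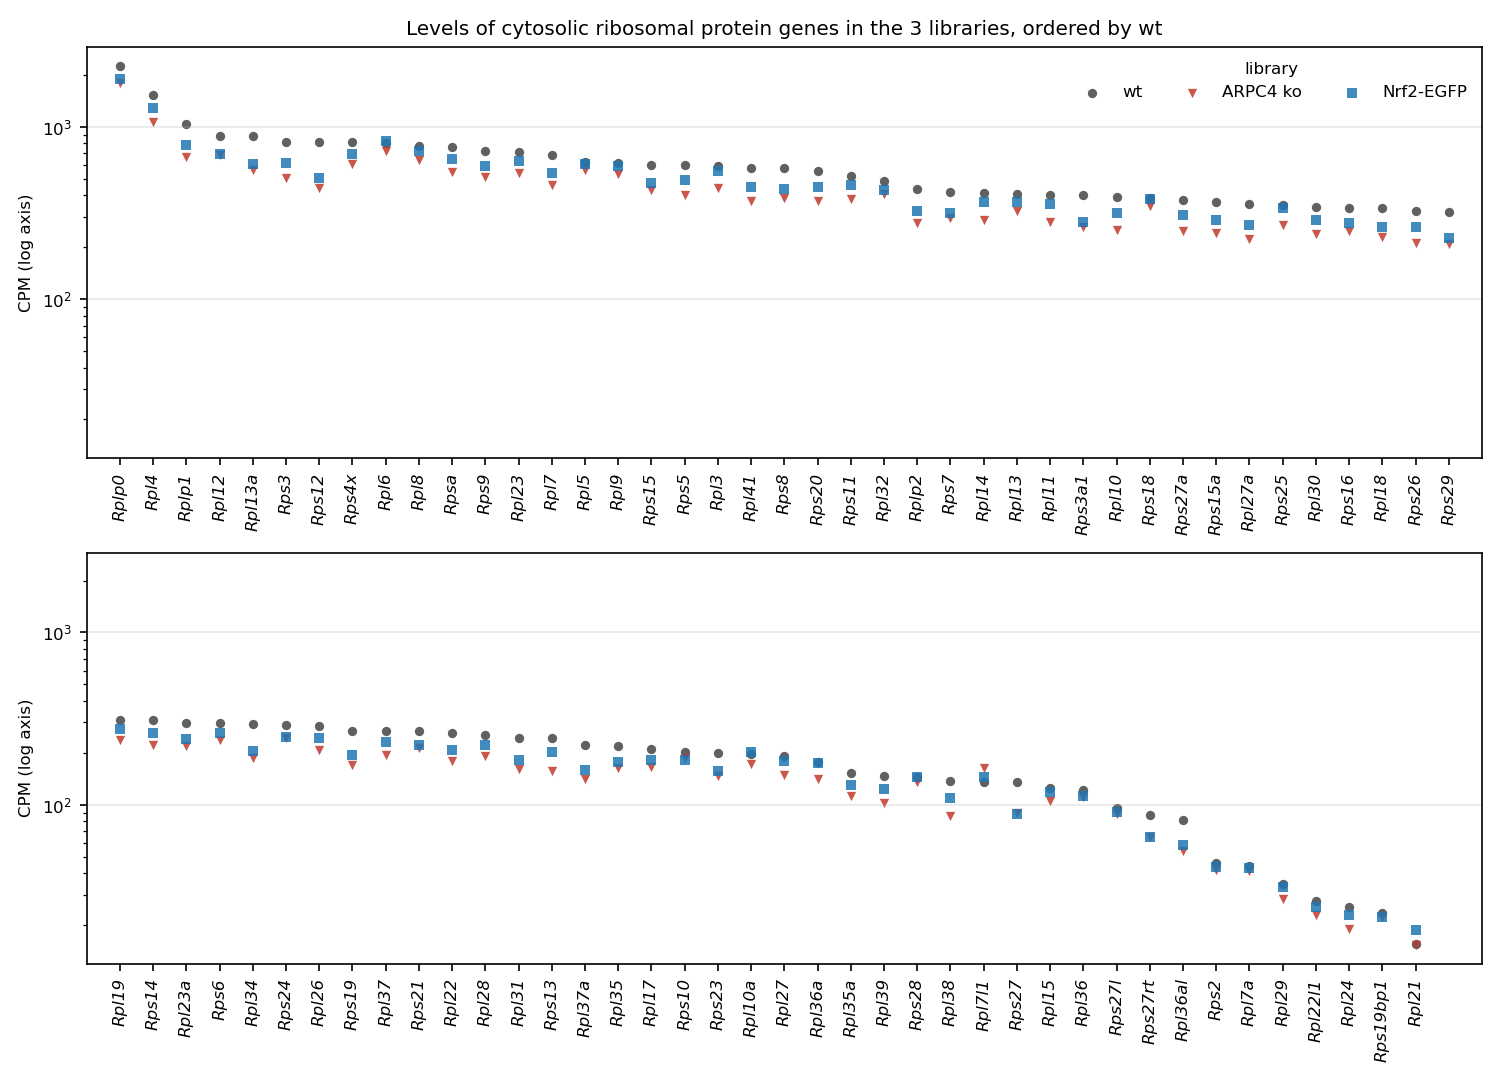
CPM (log axis) of 81 of the 83 genes in the wt, ARPC4 ko and Nrf2-EGFP libraries, ordered by wt and split over 2 rows, with 1 point per library and no error bars, since each group has 1 library. For most genes wt lies above Nrf2-EGFP and ARPC4 ko lies lowest, and Rpl7l1 stands out with its highest value, 164 CPM, in ARPC4 ko.

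In ARPC4 ko nearly every ribosomal protein gene was lower than in wt, by a modest and similar factor. The median log2 fold over the 83 genes was -0.44, a factor of 1.36, beside -0.01 over all genes kept. A log2 fold here is the log2 ratio of CPM + 0.5, and a ratio has an exact 95% interval that covers counting error only. For 79 of the 83 genes that interval lay below 1, where 34.6% of all genes did so, and for 1 gene it lay above 1 (31.6% of all genes). Abundant genes pass such an interval more easily. It lay below 1 for 57.5% of other genes with at least 100 CPM in wt. Of the protein-coding ones among these with a transcript of up to 1000 bases it did so for 74.2%. At least 1.25-fold lower with the interval below 1 were 62 of 83 (74.7%, beside 17.3% of all genes), and none was 1.25-fold higher (19.3% of all genes). Of the 124 other protein-coding genes at that CPM with such a short transcript, 48 (38.7%) were that much lower and 6 higher. None of the 83 genes reached a 2-fold difference in either direction, which 2.06% of all genes did downwards and 4.7% upwards. Summed over the 83 genes, the level in ARPC4 ko was 0.730 times that in wt (interval 0.727 to 0.732). All 77 core genes had a log2 fold below 0 with TMM scaling, where 6112 of the 11865 genes kept did. With scaling by total counts 75 of the 77 did, and Rpl21 and Rps28 lay above 0. That scaling shifts the median of all genes by 0.10, and relative to all genes the 83 genes lay at -0.43 with TMM and -0.42 with total counts. A scaling moves every gene by nearly the same amount, so this relative value could hardly change with it.

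In Nrf2-EGFP the same genes were mostly lower than in wt too, by less. The comparison uses the same wt library, so the 2 results are not independent. The median log2 fold was -0.25, a factor of 1.19, beside 0.00 over all genes. The interval lay below 1 for 67 genes (30.8% of all genes) and above 1 for 3 (32.1%), which were Rpl21, Rpl7l1 and Rpl6. It lay below 1 for 40.5% of other genes with at least 100 CPM in wt, and for 60.5% of the short protein-coding ones. At least 1.25-fold lower were 26 of 83 (31.3%, beside 15.3% of all genes) and none was 1.25-fold higher (17.1%). Of the 124 other protein-coding genes that were short and at that CPM, 32 (25.8%) were that much lower and 9 higher. The share of the ribosomal protein genes was thus not far above that of such genes. None of the 83 genes differed 2-fold (2.05% of all genes downwards, 3.57% upwards), and their summed level was 0.833 times that in wt (0.831 to 0.836). Of the core genes 73 of 77 had a log2 fold below 0 with TMM scaling, where 5870 of the 11865 genes kept did. With total counts 74 of the 77 did.

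**Figure D2:**
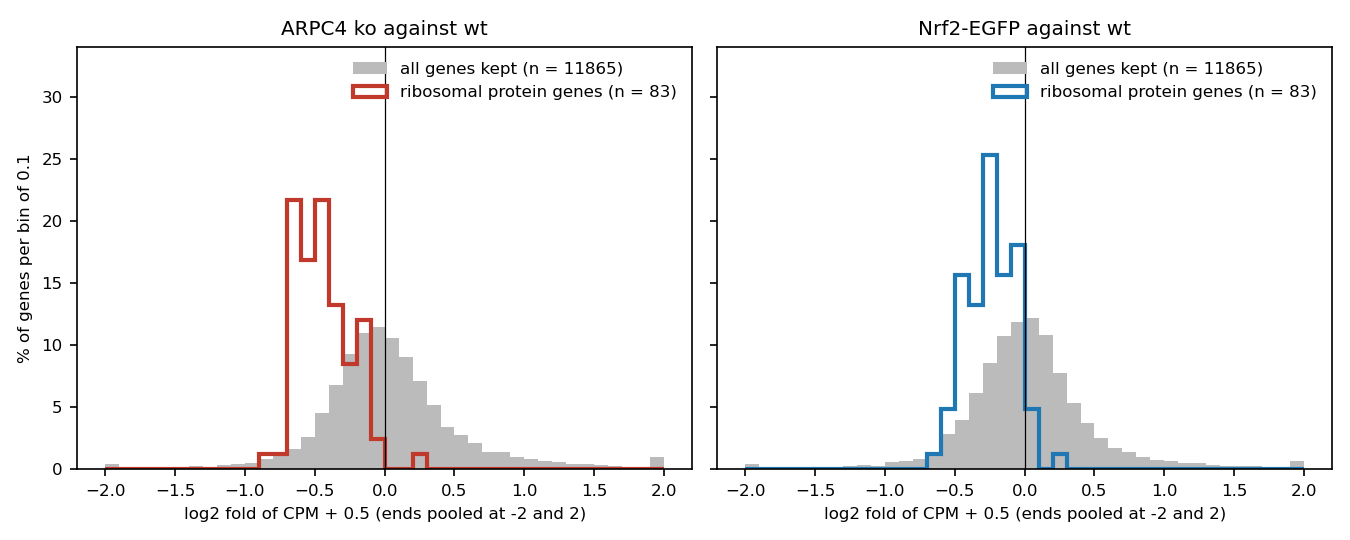
Share of genes (%) in each bin of 0.1 of the log2 fold of CPM + 0.5, for ARPC4 ko against wt (left) and Nrf2-EGFP against wt (right), with all 11865 genes kept in grey and the 83 ribosomal protein genes as an outline; values beyond -2 and 2 are pooled in the end bins. The ribosomal protein genes form a narrow distribution left of 0, with medians of -0.44 and -0.25, inside the wider one of all genes.

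Between ARPC4 ko and Nrf2-EGFP the genes were lower in ARPC4 ko, with a size that depends on the scaling. The median log2 fold of ARPC4 ko against Nrf2-EGFP was -0.20, beside -0.02 over all genes. The interval lay below 1 for 71 genes (31.8% of all genes) and above 1 for 1 (23.6%). At least 1.25-fold lower were 8 genes (9.64%), near the 10.4% of all genes. Other genes with at least 100 CPM in wt had a median of -0.11, and the interval lay below 1 for 61.2% of them. For the short protein-coding ones among these the share was 64.5%. No gene differed 2-fold (0.961% of all genes downwards, 2.01% upwards). With scaling by total counts the median was -0.07 and the interval lay below 1 for 43 genes and above 1 for 11. The shares of all genes given above do not apply to that scaling, and its own were not computed. All genes shifted by 0.12, and relative to all genes the difference was -0.18 with either scaling. That relative value could hardly change, since a scaling moves every gene by nearly the same amount. Among the most different genes were Rps13 (242 CPM in wt, against 157 in ARPC4 ko and 202 in Nrf2-EGFP, log2 fold -0.37) and Rpl11, Rpl38 and Rps25 (-0.34 each). Wt was highest, Nrf2-EGFP intermediate and ARPC4 ko lowest for 71 of the 77 core genes with TMM and for 55 with total counts, while wt was highest for 73 with both. The share of all genes with these orders was not computed.

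Among the 40S genes all 31 were lower in ARPC4 ko by the interval (34.6% of all genes), with a median log2 fold of -0.49, and 28 of 31 in Nrf2-EGFP (30.8% of all genes), with a median of -0.30. Rps12, a protein of the beak of the small subunit, showed the largest difference of all 83 genes (ENSMUSG00000061983, chr10:23785183-23787275, minus strand). It had 811 CPM in wt, against 443 in ARPC4 ko and 505 in Nrf2-EGFP, and was 1.83-fold lower in ARPC4 ko (1.79 to 1.88) and 1.61-fold lower in Nrf2-EGFP (1.57 to 1.64). Both libraries thus lay well below wt. Rps12 in ARPC4 ko against Nrf2-EGFP had a log2 fold of -0.19, near the median of -0.20 over the 83 genes. Rps3, which sits at the mRNA entry and also has a repair function, had 815, 505 and 611 CPM, 1.61-fold lower. Nearly all windows of Rps3 (99.4%) are unique, so its counts share almost no reads with other annotated transcripts. Rps19, the gene most often mutated in Diamond-Blackfan anaemia, had 269, 171 and 194 CPM, with log2 folds of -0.65 and -0.47.

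Rps3a1 (402, 262 and 281 CPM) and Rps29 (318, 209 and 226 CPM) had nearly as low a level in Nrf2-EGFP as in ARPC4 ko. Their log2 folds in ARPC4 ko against Nrf2-EGFP were -0.10 and -0.11. Relative to the other genes of their chromosomes, Rps3a1 lay at -0.42 in ARPC4 ko and -0.21 in Nrf2-EGFP. Rps29 lay at -0.44 and -0.21. Rps27a, which is made as a fusion with ubiquitin, had 376, 247 and 306 CPM, so its level in Nrf2-EGFP lay between the other 2. Rpsa, also known as a laminin receptor, had 763, 543 and 651 CPM, and Rps6 had 297, 236 and 260 CPM. At the other end stood Rps28 (145, 135 and 144 CPM), Rps10 (202, 186 and 182 CPM), Rps18 (386, 348 and 381 CPM) and Rps2 (45.6, 41.7 and 43.5 CPM). These 4 were at most 1.11-fold lower in ARPC4 ko, and all lie on chromosome 17.

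Among the 43 genes of the 60S subunit 41 were lower in ARPC4 ko by the interval (34.6% of all genes), with a median log2 fold of -0.43, and 34 were lower in Nrf2-EGFP and 2 higher (30.8% and 32.1% of all genes), with a median of -0.19. Rpl27a (354, 223 and 268 CPM), Rpl34 (292, 186 and 204 CPM) and Rpl13a (883, 561 and 606 CPM), a protein also known from interferon-dependent translational control, had log2 folds of -0.66, -0.65 and -0.65 in ARPC4 ko. Rpl38, a protein needed for translation of Hox mRNAs in the embryo, had 137, 86.3 and 110 CPM, 1.58-fold lower in ARPC4 ko (1.50 to 1.68) and 1.25-fold lower in Nrf2-EGFP (1.19 to 1.32). Rpl37a had 221, 141 and 160 CPM. Proteins of the exit tunnel (Rpl4, Rpl17, Rpl39) had a median log2 fold of -0.51 in ARPC4 ko and -0.24 in Nrf2-EGFP. Those around the tunnel exit (Rpl19, Rpl23a, Rpl26, Rpl31, Rpl35) had -0.45 and -0.30, so neither stood outside the range of the other 60S genes.

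Rpl5 and Rpl11, which form the 5S ribonucleoprotein particle that binds the p53 regulator Mdm2 when ribosome assembly is disturbed, differed on the scale of all genes. Rpl11 had 404 CPM in wt, against 279 in ARPC4 ko and 354 in Nrf2-EGFP, 1.45-fold lower in ARPC4 ko (1.40 to 1.49). Rpl5 had 620, 558 and 604 CPM, 1.11-fold lower (1.08 to 1.14). Rpl5 lies on chromosome 5 and Rpl11 on chromosome 4, and relative to the other genes of these chromosomes they were nearly alike in ARPC4 ko (-0.35 for Rpl5 and -0.40 for Rpl11) and in the opposite order in Nrf2-EGFP (-0.23 and -0.11). Other 60S genes with small differences were Rpl21 (15.6, 15.3 and 18.7 CPM, 351 to 464 counts), Rpl7a (44.2, 41.0 and 42.9 CPM), Rpl36 (122, 110 and 112 CPM), Rpl6 (804, 719 and 830 CPM) and Rpl10a (198, 172 and 201 CPM). Rpl6, Rpl10a and Rpl21 had log2 folds above 0 in Nrf2-EGFP, at 0.05, 0.03 and 0.25.

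The 3 stalk genes were lower in both libraries by the interval. Rplp0, often used as a reference gene in quantitative PCR, had the highest CPM of all 83 genes, with 2260 in wt, against 1793 in ARPC4 ko and 1885 in Nrf2-EGFP, which is 1.26-fold (1.24 to 1.28) and 1.20-fold (1.18 to 1.21) lower than wt. Rplp1 had 1040, 663 and 787 CPM and Rplp2 had 436, 274 and 325 CPM. Their log2 folds against wt were -0.65 and -0.67 in ARPC4 ko and -0.40 and -0.42 in Nrf2-EGFP, nearly the same for the pair that forms a dimer on the stalk. Relative to the other genes of its chromosome, a measure taken up below, Rplp1 lay at -0.70 in ARPC4 ko and -0.53 in Nrf2-EGFP, Rplp2 at -0.48 and -0.28, and Rplp0 at -0.53 and -0.45, so that the pair then differed and Rplp0 was not the least lowered.

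Much of the spread between the core genes followed the chromosome on which each gene lies. The median log2 fold of all other genes on a chromosome ranged from -0.20 (chromosomes 3 and 18) to 0.29 (chromosome 17) in ARPC4 ko against wt, and from -0.31 (chromosome 3) to 0.19 (chromosome 5) in Nrf2-EGFP against wt. On chromosome 17 the other genes had a median of 0.29 and the 7 ribosomal protein genes -0.13 in ARPC4 ko. On chromosome 5 the values were 0.20 and -0.16 (5 genes), and on chromosome 7, which carries 14 of the genes, -0.19 and -0.62. The 11 core genes on chromosomes 5 and 17 had a median log2 fold of -0.15 in ARPC4 ko (range -0.33 to -0.02) and -0.04 in Nrf2-EGFP, whereas the 66 elsewhere had -0.50 and -0.28. Why whole chromosomes differed between the libraries was not tested.

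Taken relative to the other genes of their own chromosome, the core genes varied less. The median was then -0.42 in ARPC4 ko and -0.24 in Nrf2-EGFP. On chromosomes 5 and 17 it was -0.41 and -0.23, elsewhere -0.42 and -0.24, and on chromosome 7 -0.42 and -0.20. The SD over the 77 genes, a spread between genes and not an error, went from 0.18 to 0.11 in ARPC4 ko and from 0.17 to 0.11 in Nrf2-EGFP. All 77 core genes lay below the median of their own chromosome in ARPC4 ko, and 76 of 77 did in Nrf2-EGFP, the exception being Rpl21. In ARPC4 ko against Nrf2-EGFP the median was -0.17 and 77 of 77 lay below. Over the 77 genes on 19 chromosomes the log2 fold and the chromosome's median had a Pearson correlation of 0.80 and a Spearman correlation of 0.73 in ARPC4 ko, and of 0.76 and 0.76 in Nrf2-EGFP. These are descriptions, since genes of 1 chromosome share its median and all values share the same libraries.

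Relative to the chromosome, the lowest core genes in ARPC4 ko were Rps12 at -0.71, Rplp1 at -0.70, Rpl38 at -0.65 and Rps27a at -0.60, and the least lowered were Rpl17 at -0.14, Rpl7a and Rps6 at -0.19, Rpl28 at -0.21 and Rpl21 at -0.22. In Nrf2-EGFP Rps12 (-0.54), Rplp1 (-0.53) and Rplp0 (-0.45) were lowest. Rps12 and Rplp1 thus led both lists, which share the wt library. Rps10 and Rps18, near the top on the scale of all genes, were ordinary by this measure: Rps10 lay at -0.41 in ARPC4 ko and -0.32 in Nrf2-EGFP.

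**Figure D3:**
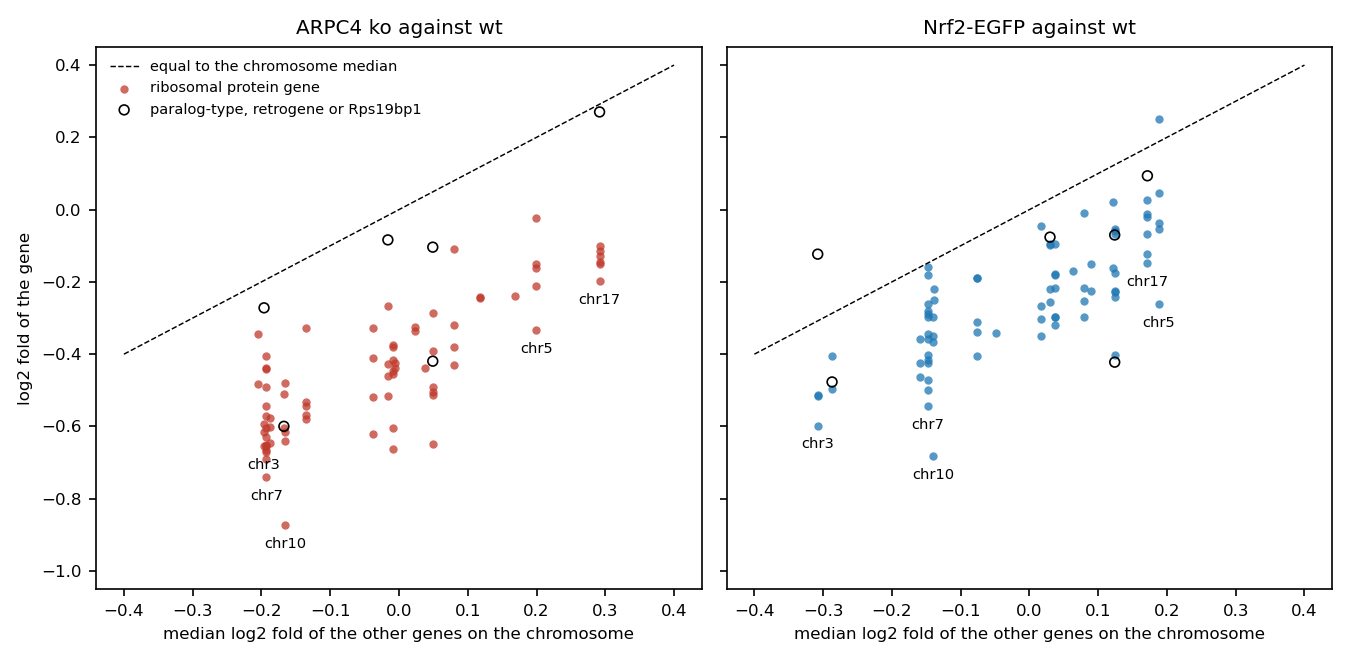
Log2 fold of each of the 83 genes (y axis) against the median log2 fold of the other genes on its chromosome (x axis), for ARPC4 ko against wt (left) and Nrf2-EGFP against wt (right); filled points are the 77 core genes, open circles the other 6, and the dashed line marks equality. Genes on chromosomes 5 and 17 lie highest, and the filled points run parallel to the line and below it, with Rpl21 above it on the right.

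Median differences were much alike with and without the TOP letters at an annotated start, and varied for some of the other letters. Core genes with the TOP letters (13 of 57 matched) had a median log2 fold of -0.43 in ARPC4 ko and -0.23 in Nrf2-EGFP, and the 44 without had -0.47 and -0.26. The annotated start can lie beside the one used, so this split cannot sort genes by a TOP start. Rpl27a was placed without the letters although a run of 15 C or T, opening with T, began at its annotated start. Rplp2 and Rps15a, with runs of 5 and 8 bases in the lines above, had log2 folds of -0.67 and -0.61 in ARPC4 ko. Rps10 and Rps18, with runs of 10 and 9 bases, had -0.12 and -0.15. The first pair lies on chromosome 7 and the second on chromosome 17. Relative to the chromosome, Rplp2 lay at -0.48, Rps15a at -0.41, Rps10 at -0.41 and Rps18 at -0.44. Genes with CCGGAAG (24) had a median of -0.48 in ARPC4 ko and the 33 without it -0.44. Genes with TGACNNNGC (11) had a median of -0.26 in Nrf2-EGFP and the 46 without it -0.25. Letters with few genes showed wider gaps in ARPC4 ko: -0.59 for the 5 core genes with AAGATGGC and -0.44 for the 52 without, -0.58 for the 6 with CACGTG and -0.44 for the 51 without, -0.33 for the 6 with TATAAA and -0.46 without, and -0.35 for the 6 with the ZBTB33 palindrome and -0.48 without. Relative to the chromosome these gaps were smaller: -0.41 and -0.42 for AAGATGGC, -0.46 and -0.42 for CACGTG, -0.41 and -0.42 for TATAAA, and -0.45 and -0.42 for the palindrome. No interval or test is given for these medians.

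The paralogs and the retrogene varied more than the core genes. Rpl7l1, a nucleolar relative of Rpl7 (ENSMUSG00000063888, chr17:46773907-46782672), was the only one of the 83 genes higher in ARPC4 ko by the interval. It had 136 CPM in wt, against 164 in ARPC4 ko and 145 in Nrf2-EGFP, with log2 folds of 0.27 and 0.09, and its parent Rpl7 had 687, 461 and 535 CPM. The value of Rpl7l1 was near that of the other genes of chromosome 17, from which it differed by -0.02 in ARPC4 ko and -0.08 in Nrf2-EGFP. Rpl22l1, the paralog that can replace Rpl22 and is held down by it, had 27.6, 22.8 and 25.3 CPM, a log2 fold of -0.27 in ARPC4 ko, while Rpl22 had 261, 179 and 206 CPM and -0.54. Relative to its chromosome Rpl22l1 lay at -0.08 in ARPC4 ko and 0.18 in Nrf2-EGFP.

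Rpl36al on chromosome 12 had 81.9, 53.9 and 58.7 CPM and its parent Rpl36a on the X chromosome had 176, 140 and 175 CPM. Their log2 folds in Nrf2-EGFP were -0.48 and -0.01, but relative to their chromosomes -0.19 and -0.09. Rps27l, a target of p53, had 95.4, 88.7 and 90.8 CPM, with log2 folds of -0.10 and -0.07, the first of which was not below 0 with total counts. Its parent Rps27 had 135, 89.0 and 88.7 CPM, 1.51-fold lower in ARPC4 ko (1.43 to 1.60) and 1.52-fold lower in Nrf2-EGFP (1.43 to 1.60), the largest difference in Nrf2-EGFP after Rps12. Relative to chromosome 3, Rps27 lay at -0.40 in ARPC4 ko and -0.29 in Nrf2-EGFP. The retrocopy Rps27rt had 87.5, 65.3 and 65.2 CPM. Only 1.42% of the 65-base windows of Rps27 and 9.35% of those of Rps27rt are unique, so their separate values are uncertain and reads of one may have been counted for the other. Rps19bp1 had 23.7, 22.3 and 22.4 CPM and its intervals included 1.

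Rack1 and Fau, which encode cytosolic ribosomal proteins under other symbols, were lower too. Rack1, a scaffold protein on the head of the small subunit, had 1311, 971 and 1200 CPM, with log2 folds of -0.43 and -0.13. Fau, the precursor of the small subunit protein eS30, had 199, 151 and 183 CPM, with -0.40 and -0.12.

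Of the lists of translation genes with at least 4 members, other mRNAs with a TOP start had the medians nearest to those of the ribosomal proteins. They encode elongation factors, some initiation factors and related proteins. All 19 were lower in ARPC4 ko by the interval (34.6% of all genes), with a median log2 fold of -0.41, and in Nrf2-EGFP 16 were lower and 1 higher (30.8% and 32.1% of all genes), with a median of -0.19. Eef1b2, an exchange factor for the elongation factor that brings tRNA to the ribosome, had 434, 268 and 327 CPM, a log2 fold of -0.69 in ARPC4 ko. Eef2, which moves the ribosome along the mRNA, had 3974, 2969 and 3311 CPM. Eif3f (149, 99.5 and 118 CPM) and Eif3e (298, 205 and 262 CPM), subunits of the initiation factor eIF3, and Eef1g (657, 454 and 616 CPM) had log2 folds between -0.58 and -0.53 in ARPC4 ko. Npm1, a nucleolar chaperone, had 1549, 1087 and 1459 CPM, with -0.51 in ARPC4 ko and -0.09 in Nrf2-EGFP.

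Genes for making and running ribosomes that are not of this class had smaller median differences. Their counts by the interval are read against 34.6% of all genes lower and 31.6% higher in ARPC4 ko, and 30.8% lower and 32.1% higher in Nrf2-EGFP. Of 27 initiation factors outside the TOP list, 20 were lower and 5 higher in ARPC4 ko (median -0.28), and 16 were lower and 8 higher in Nrf2-EGFP (median -0.14). Eif3c, a core subunit of eIF3, had 1211, 626 and 724 CPM, with log2 folds of -0.95 and -0.74, beyond any ribosomal protein gene, and Eif4g1, the scaffold of the cap-binding complex, was at 0.38 in Nrf2-EGFP. Of 76 mitochondrial ribosomal protein genes 46 were lower and 3 higher in ARPC4 ko (median -0.21) and 36 and 3 in Nrf2-EGFP (median -0.12). Mrpl23 was lowest with 19.6, 11.1 and 11.5 CPM. Ribosome assembly factors had 38 of 53 lower and 5 higher in ARPC4 ko (median -0.19) but 22 lower and 21 higher in Nrf2-EGFP (median 0.03). Among them Nmd3, the export adaptor of the large subunit, had 97.6, 70.7 and 78.4 CPM, and Noc2l had 272, 198 and 275 CPM.

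The next counts are read against the same shares of all genes, 34.6% lower and 31.6% higher in ARPC4 ko and 30.8% and 32.1% in Nrf2-EGFP. Chaperones and importers of ribosomal proteins had 7 of 12 lower and 1 higher in ARPC4 ko, with medians of -0.09 and 0.06 in the 2 libraries, the first of which was 0.01 with total counts. The RNA polymerase I machinery, which makes ribosomal RNA, had 5 of 14 lower and 5 higher in ARPC4 ko and 4 of each in Nrf2-EGFP, with medians of 0.05 and 0.00. Of 19 genes for mTORC1 and for regulators of TOP mRNAs, 10 were lower and 5 higher in ARPC4 ko and 5 lower and 8 higher in Nrf2-EGFP, with medians of -0.10 (0.01 with total counts) and 0.05. Eif4ebp1, which blocks cap-dependent initiation when it is not phosphorylated, had 179, 101 and 145 CPM, a log2 fold of -0.82 in ARPC4 ko. Tsc2, an inhibitor of mTORC1, had 66.9, 102 and 86.0 CPM, with 0.60 and 0.36. Deptor, another inhibitor, had 15.1, 10.3 and 5.84 CPM and a log2 fold of -1.30 in Nrf2-EGFP, the only gene of these lists past 2-fold. Larp1 had 491, 452 and 553 CPM, and Myc, an activator of ribosomal genes, 145, 149 and 170 CPM.

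**Figure D4:**
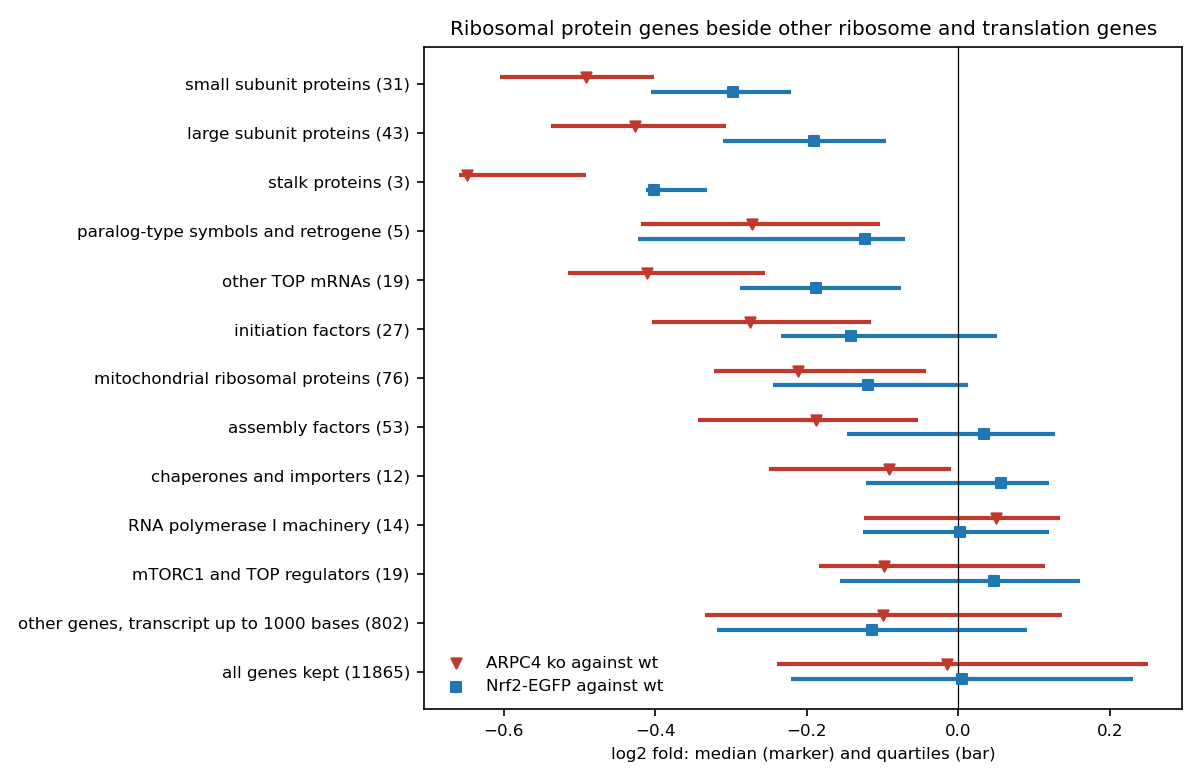
Median log2 fold (marker) and range from the lower to the upper quartile of the genes (bar) for ARPC4 ko against wt and Nrf2-EGFP against wt, in the ribosomal protein genes by class, in other ribosome and translation genes and in all genes kept, with the number of genes in brackets. The 40S, 60S and stalk genes and the other TOP mRNAs lie farthest to the left in ARPC4 ko, and RNA polymerase I machinery lies near 0.

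Length and level of the mRNA moved with the differences to some extent among genes that encode no ribosomal protein. The 802 other protein-coding genes with an annotated transcript of up to 1000 bases had a median log2 fold of -0.10 in ARPC4 ko and -0.11 in Nrf2-EGFP, against 0.00 and 0.02 for the 10482 with longer transcripts. Other genes with at least 100 CPM in wt had -0.11 and 0.00, and those that were both short and at that level (124 genes) had -0.24 and -0.14. The core genes are short and abundant, and their medians of -0.45 and -0.25 were lower than those of that stratum. Whether length or RNA quality had a part in the differences was not tested. Among the 77 core genes themselves, transcript length and the log2 fold had Spearman correlations of 0.13 in ARPC4 ko and 0.17 in Nrf2-EGFP.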

How the data were processed

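RNA was measured in 3 libraries, 1 per genotype (Nrf2-EGFP, ARPC4 ko and wt). TRIzol was used for RNA extraction and the TruSeq Stranded mRNA kit for libraries, which were read as 65 bp single ends, per the labels' protocols. TopHat2 2.1.0, Bowtie 1.1 and HTSeq were used on the mm10 build, per the submitters' processing notes. Settings of the tools, such as strand, and the gene annotation they used are not stated in the sources at hand. The values the authors deposited are raw counts of reads per gene, without normalisation, for 41214 identifiers. Non-gene entries (9.08%, 8.22% and 8.48% of the total) were left out.

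Symbols, coordinates and transcripts came from GENCODE M21 (40340 identifiers had a symbol). Counts were divided by TMM sizes (edgeR 4.0.16, R 4.3.3; factors 0.981, 1.06 and 0.966) to give CPM. Genes with at least 1 CPM in any library were kept. Ratios have exact 95% Clopper-Pearson intervals conditional on the gene's sum, and 2-fold with an interval that excludes 1 was the size rule. Level per kb used 1 transcript per gene (principal and in CCDS, then the shortest), and uniqueness its 65-base windows. Only the ratio intervals and the 2-fold size rule were tested on simulated counts. With 1 library per group, depth sets only the counting error.

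Genes were named as follows: the 10 highest per kb in wt, the 10 lowest and 10 highest folds against wt, the 5 most different between ARPC4 ko and Nrf2-EGFP, stalk, 5S particle and paralog genes with their parents, up to 4 per list, and a few chosen after their values were seen. A few that the rule picks are left out here. The genes, lists and comparisons were chosen with earlier results of these data known. Alternatives were other scalings, including DESeq2 1.42.0 size factors, filters, pseudocounts and memberships. Comparison by chromosome, the 1.25-fold rule and uniqueness among annotated transcripts were chosen after seeing the data.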

Additional observations from a re-analysis of the deposited data

How the results depend on the processing

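No setting turned the direction of the median or summed ratio of the ribosomal protein genes. Medians ranged from -0.48 to -0.33 in ARPC4 ko against wt, from -0.27 to -0.23 in Nrf2-EGFP against wt and from -0.21 to -0.07 between ARPC4 ko and Nrf2-EGFP. With scaling by total gene counts the median in ARPC4 ko against wt became -0.33 and that against Nrf2-EGFP -0.068. The latter came with 43 genes lower and 11 higher by the interval, and the shares of all genes were not computed at that scaling. The summed ratios became 0.785 and 0.821 against wt and 0.957 between ARPC4 ko and Nrf2-EGFP. With DESeq2 size factors the summed ratios of ARPC4 ko were 0.737 against wt and 0.886 against Nrf2-EGFP. Without the paralogs and Rps19bp1 no gene was higher (0) in ARPC4 ko against wt or against Nrf2-EGFP, and the summed ratio against wt was 0.727. With cytosolic ribosomal proteins of other symbols added, the summed ratios were 0.837 in Nrf2-EGFP against wt and 0.873 between the other two. Among the 14 genes with at least 75% unique windows, chosen after seeing the data, 12 were lower and 1 higher in ARPC4 ko (summed ratio 0.722). In Nrf2-EGFP 11 were lower and 1 higher (0.829), and in ARPC4 ko against Nrf2-EGFP 10 lower and 1 higher (0.871), as fewer genes were counted. Of all genes 34.6% were lower and 31.6% higher in ARPC4 ko, and 30.8% and 32.1% in Nrf2-EGFP. Between ARPC4 ko and Nrf2-EGFP these shares were 31.8% and 23.6%. At 1.25-fold, also chosen after seeing the data, 62, 26 and 8 genes were lower, where 17.3%, 15.3% and 10.4% of all genes were. The last count, 9.64% of the 83 genes, was near the share of all genes. At 2-fold 0 genes were lower in each comparison (2.06%, 2.05% and 0.961% of all genes). Relative to chromosome medians the 83 genes lay at -0.41, -0.23 and -0.17. Uniqueness in the genome was not run, and annotated transcripts were used in its place. No paired analysis was possible because each group has 1 library.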
